A study of Mus musculus with 27 samples.

Results

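Interferon-stimulated genes were followed in cultured mouse fetal liver cells with and without the pocket proteins Rb1 and p107. The set was a list of 34 gene symbols chosen for their known response to interferon. Of these, 32 had a probe set that carried their symbol alone, out of 18193 genes measured that way, and all 32 were bright enough to be among the 10916 genes tested. Isg15, the ubiquitin-like protein joined to other proteins after interferon, and Ifi44 had no such probe set and are not reported. The cells came from the liver at embryonic day 14.5 and had 0, 24 or 48 h in a serum-rich medium with no other treatment. Wild type (WT) had 3, 2 and 2 arrays at those times, the p107 knockout (p107KO, gene Rbl1) had 2, 2 and 1, the Rb1 knockout (Rb1KO) had 5, 4 and 2, and the knockout of both (DKO) had 2, 1 and 1. No allele, strain or Cre driver is named in the labels. Nor is it stated that arrays sharing a group are from different animals or cultures. The p-values therefore describe spread among these arrays, and that spread may be technical.

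Type I interferons bind the receptor Ifnar1/Ifnar2, whose kinases phosphorylate Stat2. Phosphorylated Stat2 acts with Irf9 in a complex that binds the interferon-stimulated response element (ISRE) in promoters, while the response to type II interferon acts largely through the gamma-activated site (GAS). The induced proteins block viral replication, sense foreign nucleic acids, or feed back on the pathway, and Stat2, Irf9 and Irf7 are themselves among them. In the fetal liver most cells are red cell precursors, and macrophages sit at the centre of the islands in which those cells mature.

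The promoters of the listed genes were searched for the ISRE core (GAAANNGAAA) and for the GAS motif (TTCNNNGAA) on both strands, in RefSeq windows from 250 bases before to 50 after a gene's start (build GRCm38.p6). Of the 34 genes, 26 matched 32 such windows. The ISRE core lay in 15 of these 32 windows (46.9%) and in 1131 of all 32851 windows (3.44%). GAS lay in 9 of the 32 (28.1%) and in 2726 of all windows (8.30%). The list was chosen for its response to interferon, so the share is a description of it, and a match is not a measured binding site. Shown here, with the matches in capitals, are the 3 genes lowest in adjusted p between Rb1KO and WT at 24 h among those with a match.
Stat2, chr10:128270248-128270547, + strand: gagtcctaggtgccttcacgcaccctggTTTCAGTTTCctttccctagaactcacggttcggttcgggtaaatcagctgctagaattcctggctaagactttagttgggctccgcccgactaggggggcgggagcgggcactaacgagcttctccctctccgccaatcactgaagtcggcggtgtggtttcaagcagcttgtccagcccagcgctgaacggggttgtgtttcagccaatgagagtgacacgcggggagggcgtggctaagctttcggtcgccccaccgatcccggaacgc
Bst2, chr8:71537423-71537722, - strand: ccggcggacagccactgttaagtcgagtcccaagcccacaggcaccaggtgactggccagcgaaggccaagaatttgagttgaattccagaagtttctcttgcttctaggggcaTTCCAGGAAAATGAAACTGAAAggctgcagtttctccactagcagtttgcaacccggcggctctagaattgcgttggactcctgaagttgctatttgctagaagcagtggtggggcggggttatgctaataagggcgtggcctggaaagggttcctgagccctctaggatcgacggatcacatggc
Eif2ak2, chr17:78882523-78882822, - strand: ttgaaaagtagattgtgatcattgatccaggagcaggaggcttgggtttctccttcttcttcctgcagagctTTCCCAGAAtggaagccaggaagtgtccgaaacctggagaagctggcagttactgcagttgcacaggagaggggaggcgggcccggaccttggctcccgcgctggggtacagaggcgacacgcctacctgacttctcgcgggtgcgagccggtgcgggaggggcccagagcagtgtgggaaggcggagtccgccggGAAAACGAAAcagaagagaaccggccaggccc
In Stat2 the single ISRE match lies at -222 from the start and reads on the strand opposite to the gene. In Bst2, whose protein tethers budding virus particles to the cell, 2 overlapping ISRE cores also overlap a GAS match, and all 3 merge into one stretch of capitals. In Eif2ak2, the RNA-activated kinase PKR, a GAS match lies at -178 and an ISRE core at 18, after the start.

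Several features of the arrays bear on all values below. The Rbl1 probe set was nearly lost in p107KO and DKO (70.3 to 168 on all arrays, against 798 or more in WT and Rb1KO). The Rb1 probe set was lower in Rb1KO than in WT at 0 h (1507 to 2825 against 6144 to 7105) and at 24 h (2659 to 4433 against 8589 to 10309), but came close at 48 h (4207 and 5453 against 5746 and 6583), so it does not check the labels there. Among the 0 h and 24 h arrays, 4 correlated least with the other arrays of their time (median r of 0.937 to 0.954). They were replicate 5 of Rb1KO at 0 h and, at 24 h, the first replicates of DKO, p107KO and Rb1KO, although arrays at 48 h ran as low as 0.943. Y-linked genes gave signal on 4 of 4 arrays in DKO, 3 of 11 in Rb1KO, 2 of 5 in p107KO and 0 of 7 in WT. In bulk RNA, fewer cells of a type and less RNA per cell cannot be told apart.

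The whole list was higher after culture. All 32 were higher at 48 h than at 0 h in every genotype. Between group means the rise had a median of 3.78 on the scale of log2(signal + 32) in WT, 3.64 in p107KO, 3.44 in Rb1KO and 3.43 in DKO. In WT it ran from 1.08 for Irf1 to 8.46 for Ifit1. The median of the 32 genes on an array, on the same log2 scale, lay between 7.58 and 8.29 on all 0 h arrays, between 9.14 and 11.29 at 24 h and between 11.13 and 12.33 at 48 h.

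**Figure D1:**
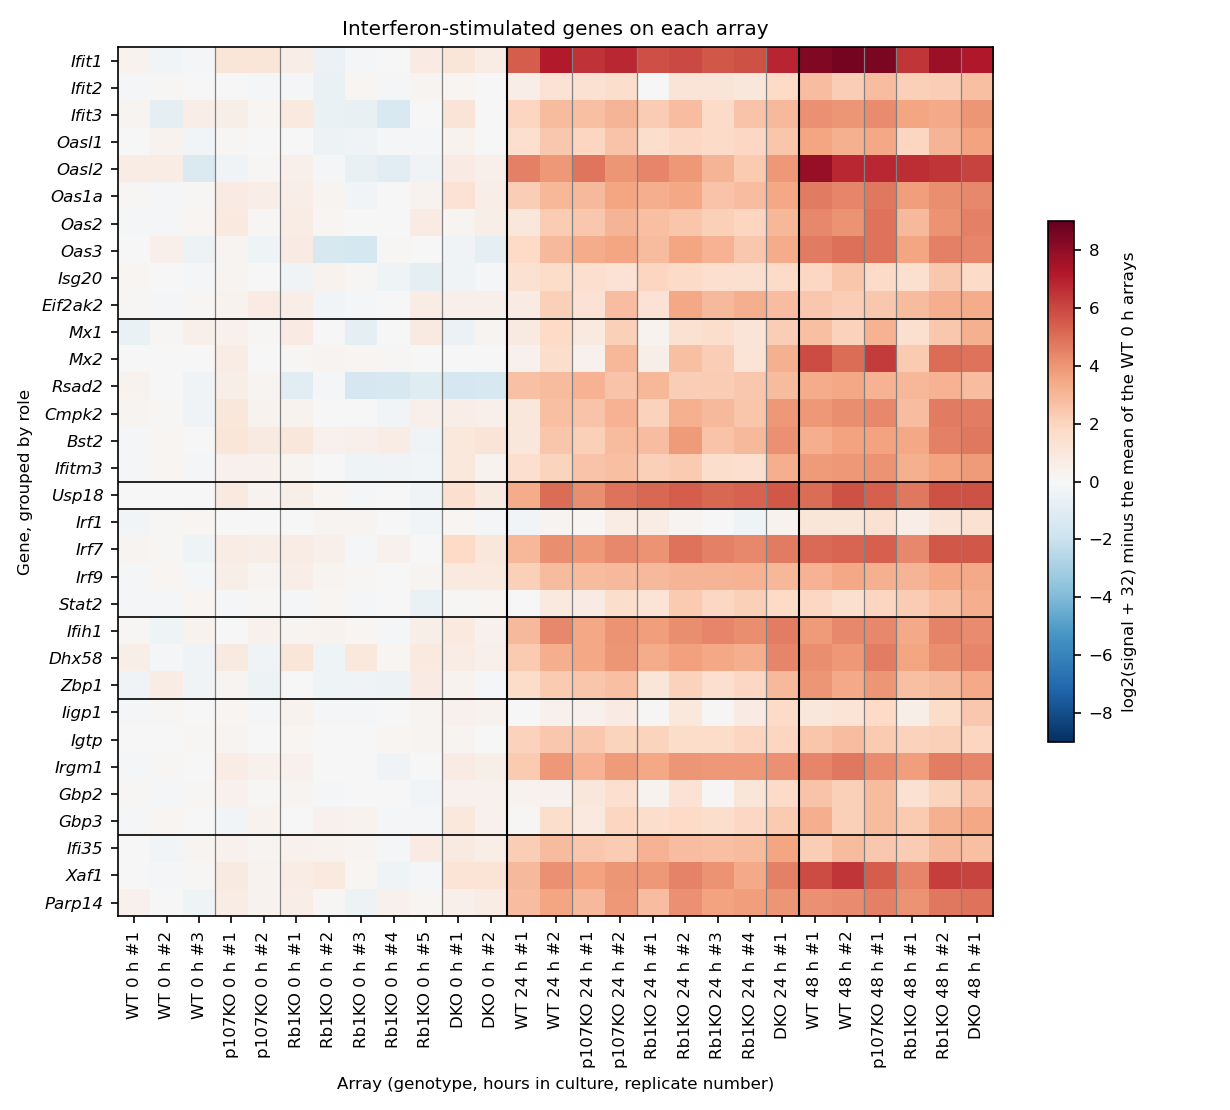
Heat map of the 32 interferon-stimulated genes (rows, grouped by role) on the 27 arrays (columns, ordered by hours in culture and genotype). Colour is log2(signal + 32) minus the gene's mean over the WT 0 h arrays. Nearly every gene was higher on the cultured arrays in each of the 4 genotypes, and within the 24 h arrays WT replicate 1 had the lowest median, 9.14 before subtraction.

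In the first day of WT culture, 25 of the 32 genes rose and none fell at a limma adjusted p below 0.05, with a median log2 difference of 2.12. Over all genes tested the median was -0.08, with 15.0% called higher and 21.9% called lower. Quantile normalization moved that median to 0.06 and the calls from 1638 higher and 2387 lower to 1942 and 1839, with 27 of the listed genes called. In the second day 23 rose and none fell (median 1.48, against 0.03 over all genes, with 13.2% called higher and 25.2% called in either direction). The second-day count rests largely on 1 array, WT 24 h replicate 1. Leaving that array out keeps 1 WT array at 24 h. Far fewer of the listed genes, and a smaller share of all genes, were then called higher. All second-day WT differences given below include that array, so they share this dependence.

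The genes whose products bind or degrade RNA all rose in the first day, 10 of 10, against 15.0% of all genes called higher. Ifit1, which binds viral RNA with an unmodified cap, gave signals of 39.0, 17.6 and 22.4 on the WT 0 h arrays, 2436 and 8210 at 24 h, and 18315 and 22476 at 48 h. No array of one time overlapped with another, and the log2 difference was 6.29 ± 0.40 (SE, limma adjusted p = 5.59e-11) in the first day and 2.17 ± 0.44 (SE, adjusted p = 0.00106) in the second. Over all genotypes Ifit1 had a lowest, median and highest signal of 7.90, 47.9 and 93.1 at 0 h, and of 5070, 15259 and 22476 at 48 h. The 0 h values lie near the dim end of the array, so this fold depends on the added 32. Ifit2 and Ifit3, its relatives, rose by 0.94 ± 0.29 and 2.38 ± 0.50 in the first WT day.

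The oligoadenylate synthetase family rose throughout both WT days. Oas1a and Oas2 make the messenger that activates RNase L, and Oas1a went from 343, 279 and 342 to 1631 and 2826 and then to 9115 and 7519. Its log2 differences were 2.63 ± 0.29 (SE, limma adjusted p = 2.00e-07) and 1.93 ± 0.31 (SE, limma adjusted p = 0.000162). Oasl2, a family member with a ubiquitin-like tail, went from 103, 104 and 3.60 to 2002 and 1256 and then to 20022 and 9662. Oas2, Oas3 and Oasl1 also passed in both days. Isg20, an exonuclease, was already bright at 0 h (2309 to 2921 in WT) and rose in the first day by 1.53 ± 0.28 (SE, limma adjusted p = 0.000185). Its second-day difference of 0.66 ± 0.31 did not pass (adjusted p = 0.128). Eif2ak2 rose by 1.47 ± 0.50 in the first day (limma adjusted p = 0.0236), with 326 and 910 at 24 h and 1069 and 947 at 48 h.

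The other antiviral effectors did not all rise in step. Rsad2 (viperin), which makes a chain-terminating nucleotide, gave 6427, 5224 and 4199 at 0 h, 32753 and 38115 at 24 h, and 53973 and 58701 at 48 h in WT. The first-day rise was 2.76 ± 0.29 (SE, limma adjusted p = 9.60e-08) and the second-day difference of 0.67 ± 0.31 did not pass (adjusted p = 0.123). Rsad2 has 2 dimmer probe sets, which gave 2.67 and 2.51 in the first day and 1.55 and 2.04 in the second, so its second-day value depends on the probe set. Mx2, a dynamin-like GTPase, gave 8.10, 6.10 and 5.30 at 0 h and 17.8 and 81.7 at 24 h, and 2199 and 1250 at 48 h. Its first-day difference of 0.97 ± 0.68 did not pass (limma adjusted p = 0.284), while the second-day rise was 4.49 ± 0.75 (adjusted p = 0.000199). Ifitm3, which blocks entry of viruses at endosomal membranes, rose by 1.75 ± 0.24 and then by 2.12 ± 0.26. Cmpk2, the kinase encoded beside Rsad2 (1.84 in the first day, and 0.86 by a dimmer probe set), and Bst2 also passed in both days, and Mx1 passed in neither (1.30 ± 0.52, limma adjusted p = 0.0519, and 1.09 ± 0.56, adjusted p = 0.164).

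Usp18 removes Isg15 from proteins and dampens receptor signalling. It gave 307, 315 and 330 at 0 h, 3440 and 11259 at 24 h, and 11265 and 18346 at 48 h in WT. The difference was 4.16 ± 0.36 (SE, limma adjusted p = 6.70e-09) in the first day and 1.20 ± 0.40 (adjusted p = 0.0291) in the second.

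The 4 transcription factors of the list did not move in step. Irf7, which amplifies type I interferon production, rose by 3.58 ± 0.36 (limma adjusted p = 4.65e-08) and then by 1.60 ± 0.39. Irf9 rose by 2.49 ± 0.20 and then by 0.82 ± 0.21. Stat2 gave 186, 189 and 234 at 0 h against 202 and 392 at 24 h in WT, and these arrays overlapped. Its first-day difference was 0.43 ± 0.31 (limma adjusted p = 0.295), and it rose by 1.21 ± 0.34 (adjusted p = 0.0112) in the second day, to 802 and 609. Irf1, a factor of the type II response, gave 342, 439 and 464 at 0 h and 346 and 491 at 24 h, with a difference of 0.00 ± 0.26 (adjusted p = 0.996). It then rose by 1.08 ± 0.28 (limma adjusted p = 0.00711), to 890 and 926.

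All 3 nucleic acid sensors rose in the first day of WT culture, against 15.0% of all genes called higher. Ifih1 (MDA5), a sensor of long double-stranded RNA, went from 300, 195 and 339 to 2306 and 5920, a rise of 3.62 ± 0.34 (SE, limma adjusted p = 1.86e-08). Its 48 h arrays gave 4307 and 6131, which overlapped with those at 24 h. Dhx58 (LGP2), a relative that lacks the signalling domain, rose by 2.78 ± 0.41 and Zbp1, which senses Z-form nucleic acid, by 2.00 ± 0.40. Dhx58 has 2 dimmer probe sets, which gave 0.34 and 1.22 for the same difference, and the dimmer one of Zbp1 gave 1.08.

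Among the GTPases induced by interferon, Irgm1 and Igtp (Irgm3), which act on membranes around intracellular pathogens, rose in the first day, by 3.14 ± 0.32 and 2.24 ± 0.16. Igtp was bright from the start, with 4491, 4505 and 5166 at 0 h and 19752 and 25278 at 24 h in WT. Gbp2 and Gbp3, guanylate-binding proteins, and Iigp1 did not pass in the first day (0.32 ± 0.30, 0.84 ± 0.40 and 0.23 ± 0.31). Gbp2 and Gbp3 rose in the second day, by 2.04 ± 0.33 and 1.89 ± 0.43 (limma adjusted p = 0.000152 and 0.00291), and Iigp1 missed the threshold (0.91 ± 0.34, adjusted p = 0.0539). Of the remaining genes, Ifi35 reached its full level in the first day. Its WT arrays gave 3529, 2900 and 4027, then 15964 and 25647, then 16385 and 24525, with a second-day difference of -0.01 ± 0.26 (limma adjusted p = 0.978). Xaf1, a binding partner of the apoptosis inhibitor XIAP, rose by 3.51 ± 0.43 and then by 2.64 ± 0.47, and Parp14, an ADP-ribosyltransferase, by 3.15 ± 0.36 in the first day. A dimmer Xaf1 probe set gave 0.46 in the first day and 0.78 in the second, and a dimmer Parp14 probe set gave 0.97 in the first, so the size of both rises depends on the probe set.

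**Figure D2:**
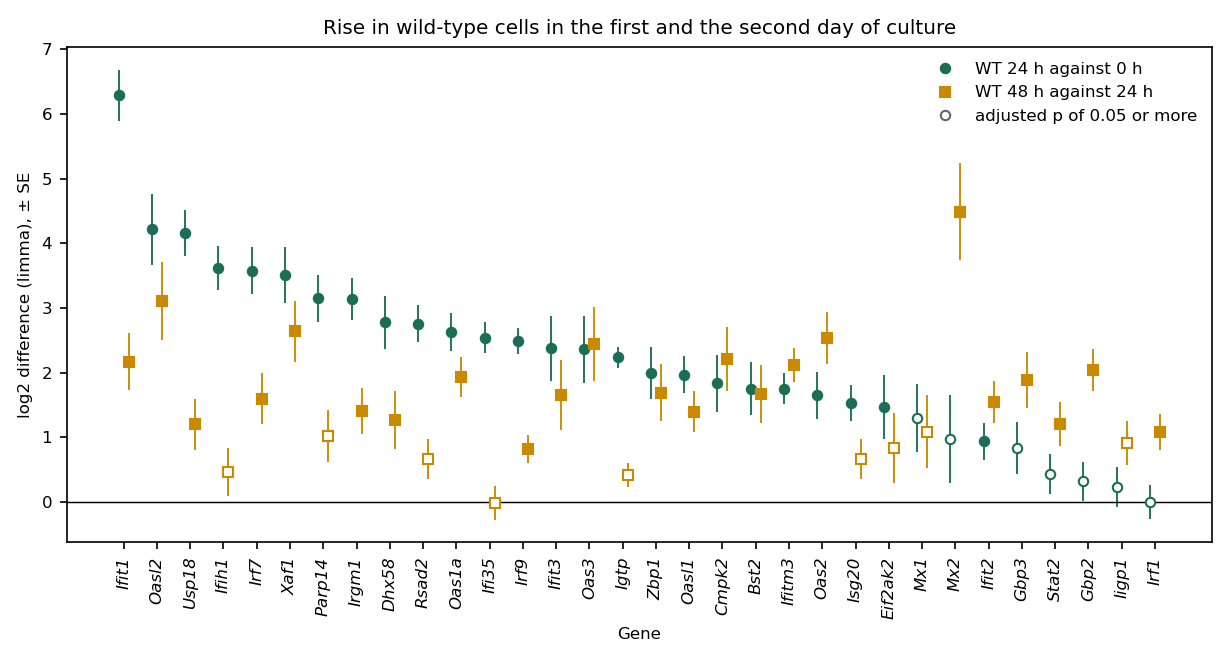
Log2 differences in WT (limma, ± SE) for each gene in the first day (circles, 24 h against 0 h) and in the second day (squares, 48 h against 24 h), sorted by the first-day difference. Open symbols had an adjusted p of 0.05 or more. Genes at the right, such as Mx2, Gbp2, Gbp3, Stat2 and Irf1, had most of their rise in the second day, and Ifi35 and Ifih1 had nearly all of it in the first.

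The share of the whole log2 rise reached by 24 h sets out this order, as a description of group means. In WT it had a median of 57.6% over the 32 genes. It was 101% for Ifi35, 88.5% for Ifih1, 84.3% for Igtp and 77.6% for Usp18. It was 0.26% for Irf1, 13.5% for Gbp2, 17.7% for Mx2, 20.2% for Iigp1 and 26.1% for Stat2. The median share was 65.8% in p107KO, 73.9% in Rb1KO and 78.7% in DKO. In Rb1KO it was 5.69% for Irf1, 111% for Ifi35 and 106% for Ifih1. The share for Stat2 was 77.1% there, 60.9% in p107KO and 54.1% in DKO. The WT mean at 24 h includes replicate 1, with an array median of 9.14 against 10.44 on replicate 2. The DKO shares rest on 1 array at 24 h and 1 at 48 h, and p107KO has 1 at 48 h. The order of the genotypes was not tested.

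The spread between arrays of one group was shared across the list. Of the 32 genes, 31 were higher on WT 24 h replicate 2 than on replicate 1, by a median of 0.89 on the log2 scale, while 50.1% of all genes were. The same held for 30 of 32 on Rb1KO 48 h replicate 2 against replicate 1 (median 0.75, with 46.0% of all genes). In p107KO at 24 h it held for 27 of 32 (median 0.47, with 52.1% of all genes). Rb1KO at 24 h has 4 arrays, and replicate 2 was higher than replicate 1 in 25 of 32 (median 0.45, with 53% of all genes). Its replicates 3 and 4 were higher than replicate 1 in 18 and 19 of 32, and higher than replicate 2 in 5 and 7. In WT at 48 h replicate 2 was higher than replicate 1 in 18 of 32, with a median of 0.10. In the 4 pairs with the shift, replicate 1 had a higher macrophage marker sum than replicate 2. Its erythroid, hepatocyte, neutrophil, lymphoid and megakaryocyte marker sums were also higher in all 4 pairs. Endothelial and plasmacytoid dendritic cell marker sums were not, with lower values on replicate 1 in WT at 24 h. The macrophage sums were 43984 and 23937 in WT at 24 h and 33815 and 27431 in p107KO at 24 h. In Rb1KO they were 39235 and 21628 at 24 h and 77713 and 43568 at 48 h. Neutrophil sums were 225218 and 172028 in WT at 24 h and 380056 and 148201 in p107KO at 24 h. In Rb1KO these were 308636 and 144465 at 24 h and 370085 and 275901 at 48 h. Other pairs went differently. In WT at 48 h, without the shift, the macrophage sums were 74392 and 52906. Rb1KO 24 h replicate 3 had a macrophage sum of 15017, with 18 of 32 genes higher than on replicate 1. In p107KO at 0 h the macrophage sums were 37792 and 28897, and 6 of 32 genes were higher on replicate 2. The part of these markers in the shift was not tested. The genes are thus not independent of each other within an array, and a comparison that includes one of these arrays moves for most of the list at once.

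In Rb1KO, 30 of the 32 genes rose and none fell from 0 h to 24 h, with a median of 2.57 (20.4% of all genes were called higher and 30.6% lower, median -0.09). Quantile normalization turned the calls over all genes from 2227 higher and 3341 lower to 2795 and 2573. Irf1 and Iigp1 were the 2 that did not pass, at 0.05 ± 0.19 and 0.45 ± 0.23. From 24 h to 48 h, 12 rose and none fell, with a median of 0.82 (13.4% of all genes higher, 7.57% lower). The 12 included Oasl2 (3.10 ± 0.52), Ifitm3 (1.54 ± 0.23), Ifit2 (1.34 ± 0.28) and Irf1 (0.78 ± 0.24, adjusted p = 0.0249). Usp18 (-0.03 ± 0.34) and Ifih1 (-0.21 ± 0.32) gave values near 0. The second-day count was 3 without Rb1KO 48 h replicate 2, and it was also 3 without the arrays with Y-linked signal.

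Before culture, Rb1KO and WT differed in 1 of the 32 genes. Rsad2 fell by 1.05 ± 0.23 on the log2 scale (SE, limma adjusted p = 0.0303), with 2689, 4503, 1763, 1867 and 2413 on the Rb1KO arrays against 6427, 5224 and 4199 in WT. A single Rb1KO array overlapped with the lowest WT array. Over all genes 0.0733% were called lower and 0.540% higher. The call was lost without any 1 of 6 arrays, which were WT replicates 1 and 2 and Rb1KO replicates 1, 3, 4 and 5 (adjusted p from 0.0512 to 0.346). It was also lost without the arrays with Y-linked signal (-0.93, adjusted p = 0.230). DKO gave 1848 and 1878, and was lower than WT by a log2 difference of -1.47 ± 0.29 (limma adjusted p = 0.0228), while p107KO gave 7683 and 6305.

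At 24 h, 3 of the 32 rose in Rb1KO relative to WT and none fell, with a median difference of 0.41. The background was 4.15% of all genes higher and 3.48% lower, with a median of -0.07. Stat2 gave 515, 1153, 800 and 996 in Rb1KO against 202 and 392 in WT, a difference of 1.45 ± 0.29 (SE, limma adjusted p = 0.00303), and no Rb1KO array overlapped with a WT array. A second Stat2 probe set gave 1.31. The array labelled DKO gave 798, and p107KO gave 360 and 670.

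Bst2 gave 1835, 3802, 1560 and 1988 in Rb1KO against 515 and 1468 in WT. The difference was 1.27 ± 0.39 (SE, limma adjusted p = 0.0470), with no overlap. Usp18 gave 12299, 15556, 12476 and 13892 against 3440 and 11259, a difference of 1.11 ± 0.34 (SE, limma adjusted p = 0.0494). Both WT arrays lay below all 4 Rb1KO arrays, one of them far below. Irf9 also had no overlap, at 0.55 ± 0.19 (limma adjusted p = 0.0731), and Eif2ak2 differed by 1.28 ± 0.47 (adjusted p = 0.101).

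These calls change with WT 24 h replicate 1, the array on which 31 of the 32 genes were lower than on replicate 2. Without it none of the 32 genes was called, and Stat2 gave 1.03 (limma adjusted p = 0.130), Bst2 0.55 (adjusted p = 0.602) and Usp18 0.26 (adjusted p = 0.770). Without WT 24 h replicate 2 the count was 7. Stat2 kept its call in 37 of 38 alternatives, that array being the exception, whereas Bst2 lost it in 18 and Usp18 in 20. Without the arrays with Y-linked signal, Stat2 gave 1.30 (adjusted p = 0.0265) and Bst2 and Usp18 did not pass. Macrophage markers summed to 43984 and 23937 on WT 24 h replicates 1 and 2 and to between 15017 and 39235 in Rb1KO. Neutrophil markers summed to 225218 and 172028 on the same WT arrays and to between 107441 and 308636 in Rb1KO. The part of these markers in the result was not tested.

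**Figure D3:**
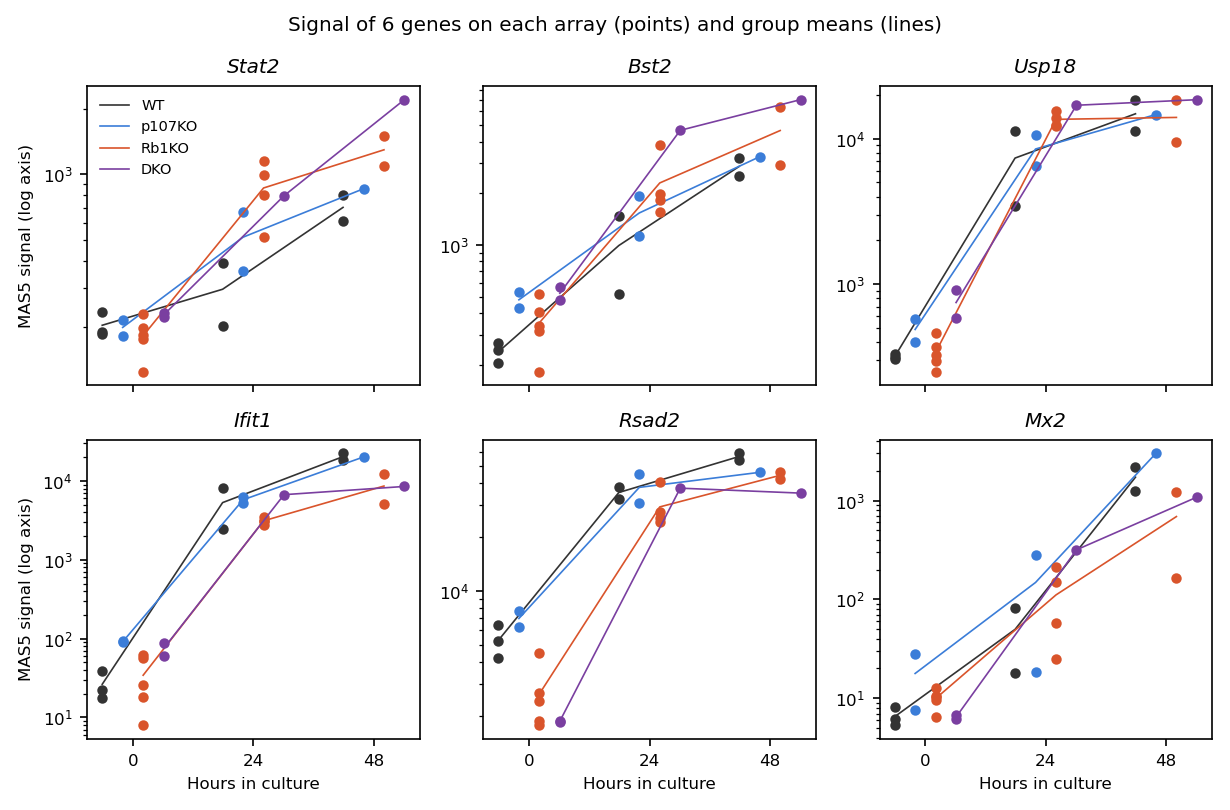
MAS5 signal (log axis) of Stat2, Bst2, Usp18, Ifit1, Rsad2 and Mx2 against hours in culture, with a point per array, a line through the group means, and genotypes set side by side. Stat2 at 24 h lay above both WT arrays on all 4 Rb1KO arrays, Rsad2 at 0 h was lowest in Rb1KO and DKO, and Ifit1 at 48 h was lower on the Rb1KO arrays than on the WT arrays.

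At 48 h the median difference between Rb1KO and WT was -0.35, and 1 gene was lower and none higher (2.91% of all genes lower, 7.46% higher, median -0.09). Ifit1 gave 5070 and 12203 in Rb1KO against 18315 and 22476 in WT. It fell by 1.36 ± 0.44 (SE, limma adjusted p = 0.0482), with no overlap. Its call was lost in 23 of 38 alternatives, among them leaving out either WT array at 48 h (adjusted p = 0.107 and 0.236) or Rb1KO 48 h replicate 1 (-0.73, limma adjusted p = 0.410). Macrophage markers summed to 77713 and 43568 on Rb1KO 48 h replicates 1 and 2 and to 74392 and 52906 in WT. Hepatocyte markers summed to 17298 and 4807 on the same Rb1KO arrays and to 43113 and 11018 in WT. Neutrophil markers summed to 370085 and 275901 in Rb1KO and to 336586 and 340678 in WT. The part of these markers in the result was not tested. Mx2 gave 163 and 1214 against 2199 and 1250, a difference of -1.78 ± 0.75 (limma adjusted p = 0.148). Stat2 gave 1089 and 1503 against 802 and 609 (0.84 ± 0.34, adjusted p = 0.127), and its difference keeps the sign it had at 24 h. The array labelled DKO had the highest Stat2 signal of all 27, at 2202.

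**Figure D4:**
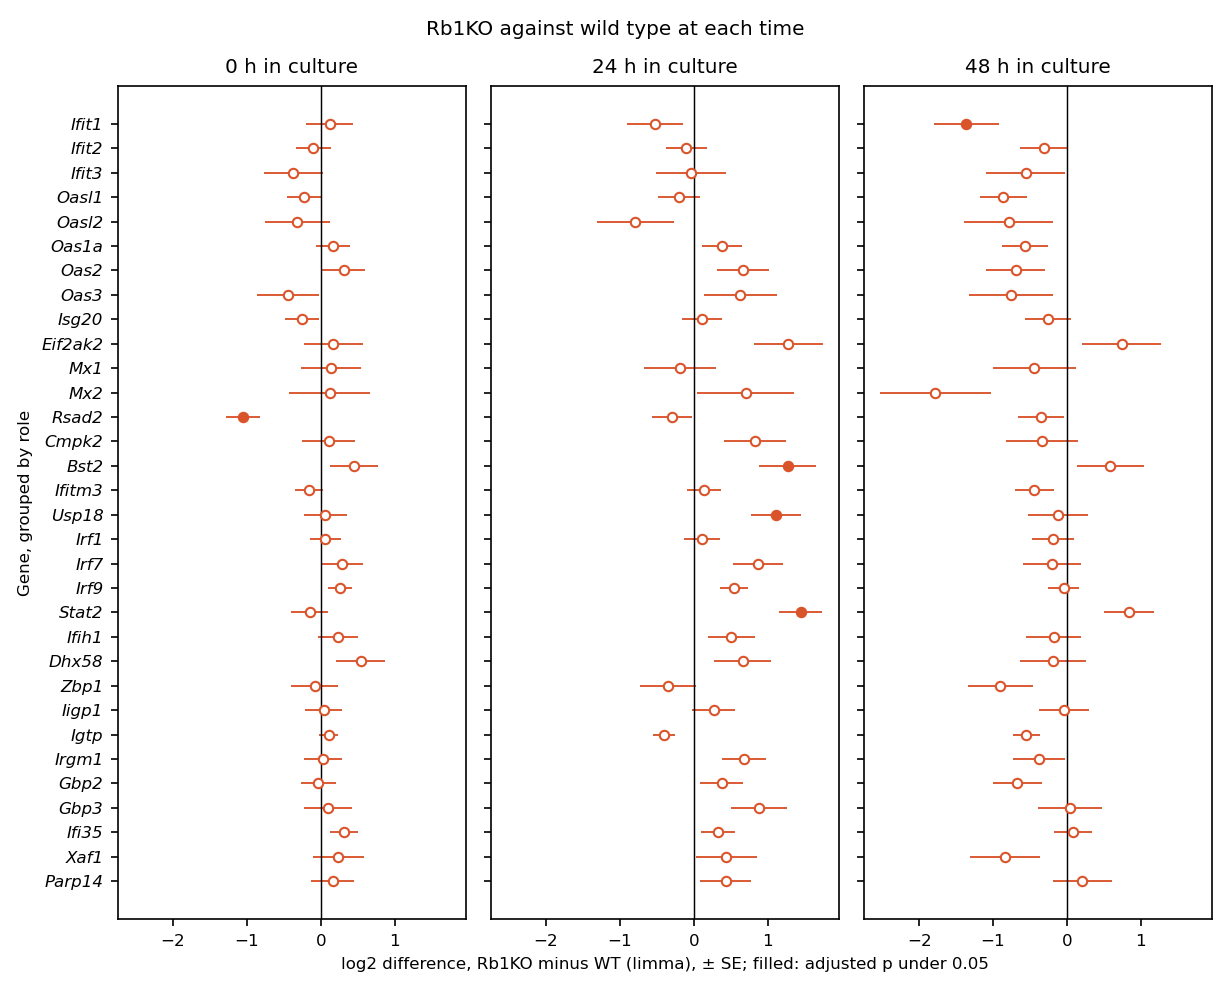
Log2 difference between Rb1KO and WT (limma, ± SE) for each of the 32 genes at 0, 24 and 48 h. Filled points passed at an adjusted p below 0.05. At 0 h Rsad2 stood below 0, at 24 h Stat2, Bst2 and Usp18 stood above 0, and at 48 h Ifit1 stood below 0.

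The change of the genotype difference with time was tested directly. From 0 h to 24 h it passed for Stat2 alone, at 1.60 ± 0.38 (SE, limma adjusted p = 0.0487). Over all genes 0.321% were called higher and 0.504% lower. The Stat2 call was lost in 24 of 38 alternatives, at 1.18 (adjusted p = 0.306) without WT 24 h replicate 1. From 24 h to 48 h the change was above 0 in 0 of the 32 genes, with a median of -0.63, and none passed by limma (7 had an unadjusted p below 0.05, and 0.0458% of all genes were called). Both WT 24 h arrays enter all of these values, so the 32 signs are not separate observations.

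Averaged over the 3 times, 2 genes rose and 2 fell in Rb1KO against WT, where 10.3% of all genes were called higher and 8.57% lower. Stat2 rose by 0.72 ± 0.17 (SE, limma adjusted p = 0.00457) and Bst2 by 0.77 ± 0.23 (adjusted p = 0.0194). Rsad2 fell by 0.57 ± 0.16 (limma adjusted p = 0.0146) and Igtp by 0.28 ± 0.09 (adjusted p = 0.0319). The called share of the list was below that of all genes tested. Leaving out arrays with Y-linked signal left 1 call. Of 38 alternatives, Stat2 lost its call in 1, Rsad2 in 2, Bst2 in 4 and Igtp in 8. The single arrays that ended a call were WT 24 h replicate 2 for Rsad2 (-0.53, limma adjusted p = 0.0504), and WT 24 h replicate 1, WT 48 h replicate 1 and Rb1KO 48 h replicate 2 for Bst2 (0.53, 0.71 and 0.59). For Igtp they were WT replicate 3 at 0 h, replicate 2 at 24 h and replicate 2 at 48 h, and Rb1KO 24 h replicate 3 and both Rb1KO arrays at 48 h (-0.22 to -0.29).

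Loss of p107 alone left no call in the list. The median difference between p107KO and WT averaged over time was 0.33, with 29 of 32 genes above 0, and 6 had an unadjusted p below 0.05 in limma. Over all genes 0.0183% were called. Oas2 came first at 0.74 ± 0.24 (limma adjusted p = 0.518). WT 24 h replicate 1, on which 31 of the 32 genes were lower than on replicate 2, enters the WT average. At 48 h p107KO has 1 array. The genes move together within an array, so the 29 signs are not separate observations.

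DKO was compared with WT before culture. At 0 h the median difference was 0.54, with 27 of 32 above 0, and these signs are not separate observations either. Rsad2 was called lower (0.0550% of all genes) and none was called higher (0.128% of all genes). Irf7 gave 690 and 393 in DKO against 220, 197 and 131 in WT (1.39 ± 0.36, limma adjusted p = 0.178), with no overlap. Usp18 gave 911 and 585 against 307, 315 and 330 (1.13 ± 0.36, adjusted p = 0.514). The count of called genes was 9 with array weights and 7 with only the arrays of the groups compared. These counts are not set against the share of all genes called under the same settings. They therefore do not show a difference particular to the list.

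Against Rb1KO, averaged over time, DKO was higher in Ifitm3 by 0.86 ± 0.16 (SE, limma adjusted p = 0.0186) and in Iigp1 by 0.95 ± 0.21 (adjusted p = 0.0322), and lower in none. The background was 0.595% higher and 0.403% lower, and the median was 0.57. Iigp1 gave 157 and 143 in DKO at 0 h, 428 at 24 h and 729 at 48 h, the highest of all arrays at the later times. Against p107KO, Ifi35 was higher by 0.61 ± 0.18 (limma adjusted p = 0.0474) and Rsad2 fell by 0.75 ± 0.22 (adjusted p = 0.0409), with 4.41% of all genes higher and 2.59% lower. All 4 DKO arrays carry Y-linked signal and the WT arrays carry none, so sex and the double knockout cannot be told apart against WT. DKO has 1 array at 24 h and 1 at 48 h, which are assumed to vary like the other groups. Rsad2 at 0 h lost its call against WT without either DKO array or without WT replicate 1 or 2 (limma adjusted p from 0.0942 to 0.376). Ifitm3 lost its call without DKO 0 h replicate 1 or Rb1KO 48 h replicate 1 (0.76 and 0.79), and Iigp1 without either DKO 0 h array or Rb1KO replicate 2 at 0 h or 1 at 48 h (0.77 to 0.97). Against p107KO, Ifi35 lost its call in 18 of 33 alternatives and Rsad2 in 6.

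The genes that act before and beside the list were followed through further lists, whose counts stand against 15.0% of all genes called higher and 21.9% lower in the first WT day and 13.2% called higher in the second. The 6 interferon genes measured were all below the brightness filter and were not tested. Ifnb1 had a lowest, median and highest signal of 5.80, 31.2 and 62.6 over the 12 arrays at 0 h, and of 26.9, 64.3 and 106.5 over the 6 arrays at 48 h. Ifng stayed between 1.50 and 59.7 on all arrays, and Ifna2 and Ifna4 did not exceed 35.1. Ifna1 and Ifna5 had the highest single values, 224.5 and 209.5 at 24 h. Their medians were 66.3 and 60.8 at 0 h, 66.5 and 69.9 at 24 h, and 100 and 60.1 at 48 h. Of 9 receptor and JAK-STAT genes tested, 2 rose in the first WT day, which were Ifnar2, the type I receptor chain (1.85 ± 0.29, limma adjusted p = 2.62e-05), and Il10rb, a chain shared with type III interferon (0.73 ± 0.14). In the second day 5 rose, and 2 without WT 24 h replicate 1, which enters all second-day counts.

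Of 13 further sensors and adaptors, 1 rose and 1 fell in the first WT day and 9 rose in the second (5 without that array). Ddx58 (RIG-I) was the gene that rose in the first day (1.99 ± 0.38, limma adjusted p = 0.000282), and it rose again in the second (1.64 ± 0.42). Sting1, the adaptor of cytosolic DNA sensing, fell by 1.13 ± 0.37 (limma adjusted p = 0.0190), although its WT arrays at 0 h and 24 h overlapped. Sting1 then rose by 1.75 ± 0.40 (adjusted p = 0.00301), and Tlr7, an endosomal RNA receptor, rose by 2.03 ± 0.55 in the second day. Of 11 negative regulators and other interferon regulatory factors, 4 rose in the first day. These included Adar, which edits double-stranded RNA (1.37 ± 0.20), Trim21 (2.00 ± 0.33) and Socs3 (1.52 ± 0.30). In the second day 4 rose and 3 fell (3 and 2 without that array), among them Rnaseh2b, a subunit of RNase H2 (fell by 1.16 ± 0.16). Of 32 further interferon-induced genes tested, 25 rose and 1 fell in the first day, and 20 rose in the second (11 without that array). Parp9, Ifi27 and Samhd1, a dNTP hydrolase, rose by 2.91 ± 0.27, 3.43 ± 0.32 and 1.80 ± 0.16 in the first. Of 11 MHC class I and immunoproteasome genes, 4 rose in the first day and 6 in the second, Psmb9 by 1.52 ± 0.21 in the second. Without that array 1 of the 11 rose in the second day, and over all genes 10.2% were then called higher.

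Between Rb1KO and WT at 24 h, 4.15% of all genes were called higher and 3.48% lower. No receptor, JAK-STAT or sensor gene passed. Irf2, a factor that competes with Irf1 for its sites, rose by 1.09 ± 0.20 (SE, limma adjusted p = 0.00128). Tapbp (tapasin), which loads peptides onto MHC class I, rose by 1.57 ± 0.24 (limma adjusted p = 0.000214). Of the further induced genes, Parp12 (1.40 ± 0.34, limma adjusted p = 0.0116) and Cxcl10, a chemokine (0.95 ± 0.26, adjusted p = 0.0267), rose. None of these calls was rechecked without WT 24 h replicate 1, the array on which the calls of the listed genes at 24 h depended. At 48 h the only calls in these lists were Rnaseh2b, Pias1 and Rnaseh2a, by 0.82 ± 0.16, 0.66 ± 0.20 and 0.68 ± 0.21. Over all genes 7.46% were called higher and 2.91% lower at that time.

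Cell type markers moved with culture as well. Over all genes 15.0% were called higher and 21.9% lower in the first WT day, and 13.2% higher in the second. Hepatocyte markers summed to between 187186 and 265704 on the 0 h arrays and to between 3285 and 43113 on cultured ones. All 11 tested fell in the first WT day, with Alb at a median of 40834 over the 0 h arrays and 2280 at 24 h. Macrophage markers summed to between 22263 and 37792 at 0 h, 15017 and 43984 at 24 h, and 42340 and 77713 at 48 h. Of 14 tested, 8 fell and 2 rose in the first WT day, and 6 rose in the second. C1qb, Timd4 and Vcam1, genes of resident macrophages, had medians of 1425, 371 and 2701 at 0 h and of 206, 19.5 and 188 at 24 h, whereas Marco went from 798 to 1852. Neutrophil markers summed to between 69040 and 114296 at 0 h and 107441 and 380056 in culture. Erythroid markers summed to between 151954 and 188254 at 0 h, 186192 and 342806 at 24 h, and 142232 and 211091 at 48 h. Klf1 had medians of 20668, 30663 and 13240.5 at these times and did not go below 12102. The medians of Alas2 were 22612, 41923 and 44016, whereas those of Epor were 4122, 2038 and 961. Plasmacytoid dendritic cell markers, of which 4 of 9 measured were bright enough to test, summed to between 858 and 1684 on all arrays, and Siglech did not exceed 243. Of 7 megakaryocyte markers, 6 fell in the first WT day and 7 rose in the second, with sums of 15846 to 35139 at 0 h, 10423 to 22030 at 24 h and 39839 to 63715 at 48 h. Of 8 endothelial markers, 7 fell in the first WT day, with sums of 5210 to 7952 at 0 h and 688 to 1516 in culture. Of 4 lymphoid markers tested, 2 rose in each WT day, with sums of 705 to 1140 at 0 h and 708 to 2310 in culture. The part of these shifts in the rise of the interferon-stimulated genes was not tested.

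**Figure D5:**
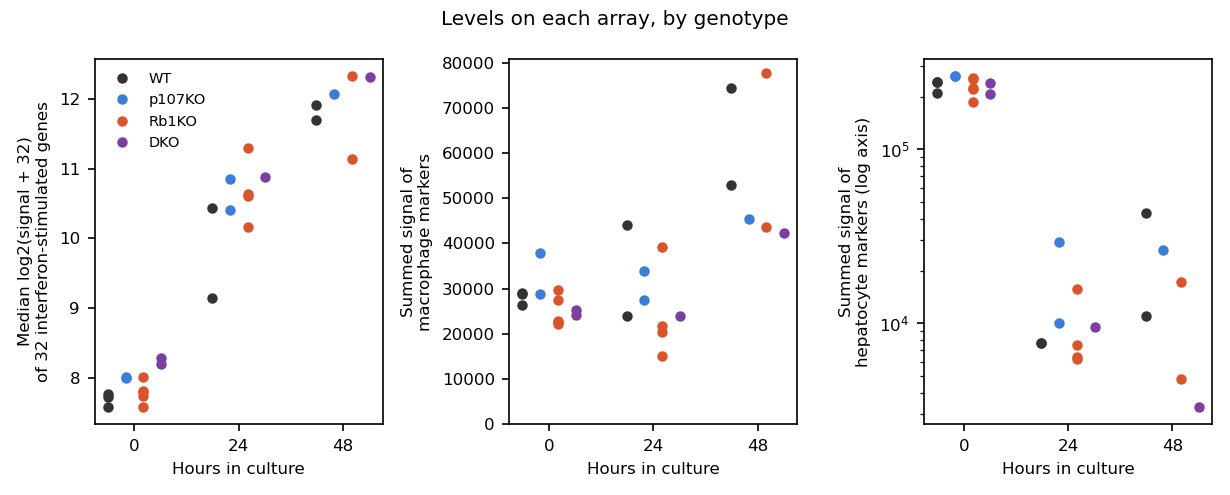
Median log2(signal + 32) of the 32 interferon-stimulated genes (left), summed macrophage markers (middle) and summed hepatocyte markers (right, log axis) on each array, by hours in culture, with genotypes set side by side. The gene list rose at each step, hepatocyte markers dropped by 24 h, and the 4 highest sums of macrophage markers were at 48 h.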

How the data were processed

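The authors deposited 1 linear intensity per probe set and array, computed by MAS5 (GCOS 1.4) per the submitters' processing notes. MAS5 scales whole arrays: the mean without the top and bottom 2% of probe sets lay between 491 and 498 on each of the 27 arrays. Their number limits the precision, and detection calls were not used here. Of 45037 probe sets, 34945 carried 1 symbol in the platform annotation, 932 several and 9160 none. A gene was read from its probe set with the highest mean of log2(signal + 32), and the dimmest 40% of genes were left out, which kept 10916. The added 32 shrinks changes of dim genes.

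limma 3.58.1 (R 4.3.3) was fitted with 1 mean for each of 12 groups and a variance trend (15 residual and 7.17 prior degrees of freedom). Adjusted p-values are Benjamini-Hochberg values over all genes tested, two-sided, with a threshold of 0.05, for 14 comparisons. The fit was tested on simulated data. The gene list, roles and further lists were chosen with earlier results of these data known. The text names the 34 genes, Rb1, Rbl1, markers as levels, and from each further list up to 3 measured genes of lowest adjusted p (4 for Rb1KO against WT at 24 h). Promoter windows are RefSeq's, build GRCm38.p6. The alternatives were the pseudocount, the filter, the choice of probe set, quantile normalization, array weights, a replicate block, fewer groups, and leaving out arrays.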

Additional observations from a re-analysis of the deposited data

Results flagged for a closer look

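Within groups of 4 or 5 arrays, each gene was checked for a single array far from the rest. Of 64 checks 2 stood out, and chance alone gives about 1 in 20. Ifit2 gave 268.7 on Rb1KO 24 h replicate 1, against 566.2 to 628.4 on the other Rb1KO arrays of that time. Irgm1 gave 5807 on the same array, against 7641 to 8023 on the others. That array is also one of the 4 with the lowest correlation with their time. The difference between Rb1KO and WT in Stat2 changed from 0 h to 24 h by 1.60 on the log2 scale (limma adjusted p = 0.0487). That call was lost in 24 of 38 alternatives, at 1.18 (limma adjusted p = 0.306) without WT 24 h replicate 1.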

How the results depend on the processing

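The counts of listed genes called in the first day of culture, in WT and in Rb1KO, stayed within 1.5 times of 25 and 30 under every alternative run, and none of the called genes changed direction in any. Of the genotype comparisons, 2 had no call and the others rest on 1 to 4, most near the threshold. With a pseudocount of 1 the count was 1 for Rb1KO against WT at 24 h, 0 at 48 h, 0 for the change from 0 h to 24 h and 1 for DKO against p107KO. With no filter these were 1, 0, 0 and 0, and DKO against Rb1KO gave 1. A filter at 60% gave 2 for Rb1KO against WT at 48 h, 2 for DKO against WT at 0 h and 1 for DKO against Rb1KO. The mean over probe sets gave 2 at 48 h. Quantile normalization gave 0 for the change from 0 h to 24 h, 2 for DKO against WT and 1 for DKO against Rb1KO. Array weights gave 0 at 48 h, and 9, 4 and 5 for DKO against WT, Rb1KO and p107KO. With only the groups compared, Rb1KO against WT gave 0 at 0 h, 1 at 24 h, 0 at 48 h and 0 for the change, and DKO against WT, Rb1KO and p107KO gave 7, 0 and 4. Chosen after seeing the data, leaving out the arrays with Y-linked signal gave 3 for Rb1KO from 24 h to 48 h, 0, 1 and 1 for Rb1KO against WT at 0 h, at 24 h and averaged, and 0 for the change. Leaving out the 4 arrays apart, also chosen after seeing the data, gave 5 at 24 h, 3 at 48 h and 2 for the change. Neither leaves arrays for all DKO values. The counts of the further lists without WT 24 h replicate 1 were also added after seeing the data. Leaving out 1 array in turn gave 9 to 25 for WT and 3 to 14 for Rb1KO from 24 h to 48 h, 0 to 1, 0 to 7 and 0 to 4 for Rb1KO against WT at 0 h, 24 h and 48 h, and 0 to 2 for the change. It gave 0 to 2, 0 to 3 and 0 to 3 for DKO against WT, Rb1KO and p107KO. The cause was not tested, beyond fewer arrays or another set of genes tested. All these counts of listed genes stand without the share of all genes called under the same alternative.

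The replicate numbers did not meet the rule for pairing, a correlation above 0.1 in every pair. Deviations of arrays with the same number had a median correlation of 0.0245, with 19 of 76 pairs above 0.1, against -0.0184 and 22 of 175 pairs for different numbers. With the replicate number as a block the count was 7 for Rb1KO from 24 h to 48 h, 0 for Rb1KO against WT at 0 h and 4 for DKO against p107KO, while Stat2, Bst2 and Usp18 at 24 h kept their calls at 1.38, 1.39 and 1.18 (limma adjusted p = 0.0032, 0.0144 and 0.0456).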
